A study of Homo sapiens with 4 samples.

Results

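The endoplasmic reticulum (ER) folds, oxidises and exports secreted and membrane proteins, and 37 human genes of this machinery and of the unfolded protein response that controls it were followed across 4 arrays. They were chosen by name, as listed ER chaperones, oxidoreductases, degradation factors, translocation and export proteins, stress sensors and their transcription factors. A probe set, the group of short oligonucleotides that measures a transcript, counted only if it was annotated to 1 of these genes and to no other. That left 36 of the 37 genes, with 97 probe sets, of 19775 genes with 41097 such probe sets in all. The ubiquitin ligase gene SYVN1 had no probe set of its own. Of the 36, 35 were measured, which here means a log2 level no lower than 6 on any 1 of the arrays, and the remaining one, DERL3, lay between 5.01 and 5.41.

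The cells were SUM159 (SUM-159), an established human breast cancer line of mesenchymal, hormone receptor-negative character, and all of them carried the inducible construct pTRIPZ-SUM159-mir-100 that makes the microRNA miR-100. Flow sorting split them by activity of aldehyde dehydrogenase (ALDH), a property by which stem-like cells of breast tumours are commonly enriched, and they were kept in suspension. The 4 groups, 1 array each, were ALDH-positive cells with DOX, ALDH-positive control cells, ALDH-negative cells with DOX and ALDH-negative control cells. The sample names give 10 h and doxycycline, whereas the sample descriptions give 13 h and doxorubicin, and the treated cells are called DOX cells here. By the series' design text, the question was which cellular targets miR-100 has in the stem-like and the other cells. The transgene is the only source of added miR-100, its mature product was not measured, and cells without the construct were not analysed here. Because no group had a second sample, a difference between 2 arrays carries no p-value.

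The mature strand of the induced microRNA, hsa-miR-100-5p, is encoded at chr11:122152275-122152296 on the minus strand (RefSeq, GRCh38.p14). It is shown with its seed, bases 2 to 8, in capitals, because it is the microRNA that the construct encodes.
hsa-miR-100-5p: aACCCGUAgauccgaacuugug

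As background, unfolded protein in the ER lumen is sensed by 3 membrane proteins. ERN1 (IRE1) splices the messenger RNA of XBP1 into that of an active transcription factor, ATF6 is cut in the Golgi to release another, and EIF2AK3 (PERK) slows translation and raises ATF4. XBP1 and ATF6 are known to act through the ER stress response element (ERSE) of chaperone genes and through its relative ERSE-II, whereas ATF4 acts through C/EBP-ATF response elements (CARE) of amino acid and redox genes.

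Promoter windows from 250 bases before to 50 bases after an annotated gene start were searched, since ERSE is the sequence feature through which many of the 37 genes are known to be controlled together. RefSeq windows (GRCh38.p14) were matched for 33 of the 37 genes, in 43 windows. DERL1, DERL3, PDIA3 and SEC24D were not matched. The ERSE, CCAAT and CCACG with any 9 bases between them on either strand, stood in 8 of the 33 genes (24.2%) and in 10 of their 43 windows. It stood in 27 of all 35116 windows (0.077%), and in 18 of the 14733 windows of measured genes (0.122%). The 9 sites follow 5′ to 3′ in the orientation of the motif, with the fixed letters in capitals, and all coordinates are those of GRCh38.p14.
HSPA5, chr9:125241391-125241409: CCAATcggcggcctCCACG
HSP90B1, chr12:103930216-103930234: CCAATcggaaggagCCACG
HSP90B1, chr12:103930321-103930339: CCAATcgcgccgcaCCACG
CALR, chr19:12938384-12938402: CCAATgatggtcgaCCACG
CANX, chr5:179698778-179698796: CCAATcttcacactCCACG
PDIA6, chr2:10812853-10812871: CCAATgagccgcagCCACG
ERO1B, chr1:236282183-236282201: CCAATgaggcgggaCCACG
XBP1, chr22:28800603-28800621: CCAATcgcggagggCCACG
CRELD2, chr22:49918554-49918572: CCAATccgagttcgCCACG

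The 9 bases between the fixed letters differed from site to site, also between both sites of HSP90B1. ERSE-II, ATTGG and CCACG with any 1 base between them on either strand, stood in a further 3 genes, HERPUD1, HYOU1 and SDF2L1, against 19 of all windows (0.054%). HYOU1 held it at 2 places. These shorter sites are shown in the same way.
HERPUD1, chr16:56932025-56932035: ATTGGgCCACG
HYOU1, chr11:119057274-119057284: ATTGGaCCACG
HYOU1, chr11:119057380-119057390: ATTGGaCCACG
SDF2L1, chr22:21642114-21642124: ATTGGtCCACG

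Other elements were less particular to these promoters by their shares. The UPRE core TGACGTGG, which XBP1 is known to bind, was present in DNAJC10, HYOU1 and SSR3, against 0.729% of all windows, and in HYOU1 it shared bases with an ERSE-II. The CARE, TGATGNAA on either strand, was present in HERPUD1 and CREB3L2, against 3.62% of all windows. No ERSE or ERSE-II letters were found in the windows of the other 22 genes.

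**Figure D1:**
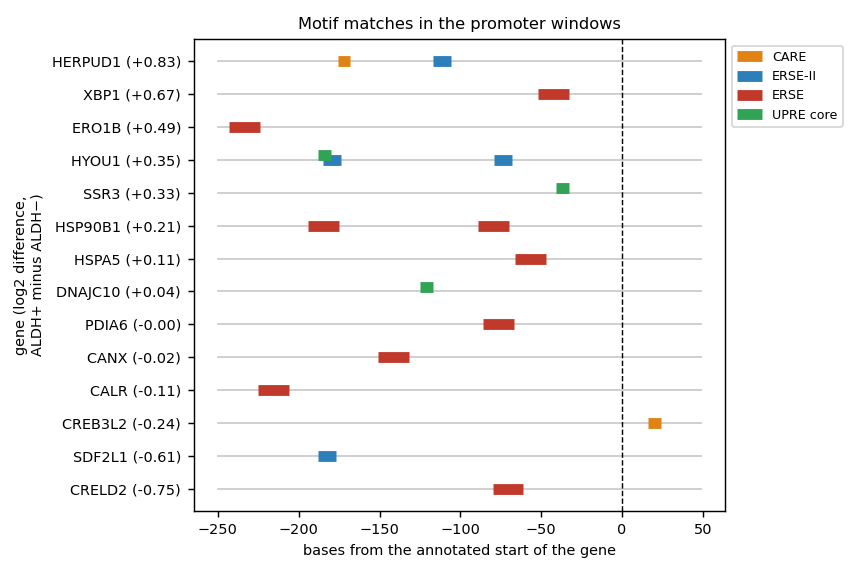
Position of each motif match in the promoter windows, as bases from the annotated start of the gene on the horizontal axis. Only genes with a match are drawn. They run down by their log2 difference between ALDH-positive and ALDH-negative cells, given in brackets, from HERPUD1 at 0.83 to CRELD2 at -0.75. ERSE and ERSE-II matches (red and blue bars) occur at both ends of the order of these drawn genes.

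The 4 arrays had medians between 6.18 and 6.22, and 11601 to 11935 genes reached a level of 6 in each. The cells held VIM (13.64 to 13.79), CD44 and AXL at high levels, while CDH1, EPCAM, ESR1 and PGR lay under 6 in all 4 arrays. Between the fractions, AXL was higher in ALDH-positive cells (1.23 ± 0.15 SE, limma adjusted p = 0.000116) and CD44 was lower (-0.33 ± 0.10 SE, limma adjusted p = 0.0347). ALDH1A1 was at 10.66 in ALDH-positive DOX and 11.77 in ALDH-positive control cells, against 10.86 in ALDH-negative DOX and 10.72 in ALDH-negative control cells. ALDH1A3 was at 6.64 in ALDH-positive DOX and 6.48 in ALDH-positive control cells, against 7.79 in ALDH-negative DOX and 5.86 in ALDH-negative control cells. Both were thus higher in the ALDH-positive fraction of the control cells only, and with DOX ALDH1A3 was lower there by -1.15. One array stood apart: the ALDH-positive DOX array differed from its control 2-fold or more at 702 of 12151 genes (5.78%), against 38 of 11819 (0.322%) in the ALDH-negative pair. In that ALDH-positive pair the median over all measured genes was 0.11 rather than 0. Of 14 leukocyte markers 12 were on the array, and the 4 that reached a level of 6 (LAPTM5, CD74, HLA-DRA and MS4A1) had higher values in ALDH-positive cells. Of these, HLA-DRA reached 6 in ALDH-positive arrays alone, and MS4A1 in the ALDH-positive DOX array alone, so that both had to differ to be measured. MS4A1 was at 6.21 there and at 4.48 in ALDH-positive control cells, against 4.25 in ALDH-negative control cells. LAPTM5 (1.82 ± 0.22 SE, limma adjusted p = 0.000128) and CD74 (1.82 ± 0.34 SE, limma adjusted p = 0.00276) reached 6 in all 4 arrays. PTPRC, CD3D, CD14 and the other 5 stayed under 6. The log2 of the summed linear levels of the 12 was 11.83 and 11.47 in ALDH-positive DOX and control cells. It was 10.10 and 10.02 in ALDH-negative DOX and control cells. Most of this sum was LAPTM5, at 11.36 and 11.13 in ALDH-positive DOX and control cells, against 9.47 and 9.36 in ALDH-negative ones. The part of these markers in the results below was not tested. Of 6 endothelial markers KDR (2.92) and PECAM1 (-2.93, limma adjusted p = 0.000174) reached 6 and went opposite ways, KDR in ALDH-positive arrays alone, while VWF, CDH5, TEK and CLDN5 stayed under 6. The erythroid marker HBB reached 6 in ALDH-positive arrays alone (6.44 and 6.98 in ALDH-positive DOX and control cells, against 5.62 and 5.77 in ALDH-negative DOX and control cells).

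On the probe set of highest mean level of each gene, ALDH-positive cells had higher values than ALDH-negative cells for several ER genes. These were the stress sensors ATF6 and ERN1, the transcription factor XBP1 and several degradation factors. With the mean of all probe sets of a gene, ATF6, ERN1, XBP1 and the degradation factor SEL1L did not pass (limma adjusted p = 0.0519, 0.283, 0.14 and 0.311). Of the 12 ER chaperones and cofactors 1 passed the test, CRELD2, which was lower, and of the 6 disulfide enzymes none did. The largest differences upward were those of EDEM2 (0.97), ATF6 (0.86) and HERPUD1 (0.83) on the log2 scale, and the largest downward those of SEC24D (-1.19) and CRELD2 (-0.75). Differences are means over the DOX pair and the control pair from a limma model with terms for fraction and DOX, in which each treatment serves as the repeat of the other, with p-values adjusted by Benjamini and Hochberg over 12365 genes. At an adjusted p under 0.05, 7 of the 35 measured genes were higher in ALDH-positive cells, against 13.5% of all genes tested, and 3 were lower, against 9.58%. In such bulk samples a change in which cells were present and a change of RNA per cell cannot be told apart. As a whole, the number of ER genes called was therefore near that of genes in general, and what follows concerns which of them they were. The calls rest on 1 residual degree of freedom per gene and on borrowing the spread of equally bright genes: without that trend EDEM2 alone passed (adjusted p = 0.0461), and the other 9 had adjusted p between 0.056 and 0.178. All 10 had the same sign in the control pair, which lacks the ALDH-positive DOX array. That pair is part of the mean on which they were called, so the sign is no separate check. SEC24D differed there by only -0.12, against -2.26 in the DOX pair. By size, HERPUD1 alone was 2-fold or more higher in the control pair and none was lower, against 6.09% and 4.4% of all genes. In the DOX pair ATF6 and EDEM2 were that much higher and SDF2L1 and SEC24D lower, against 11.4% and 5.32% of all genes.

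**Figure D2:**
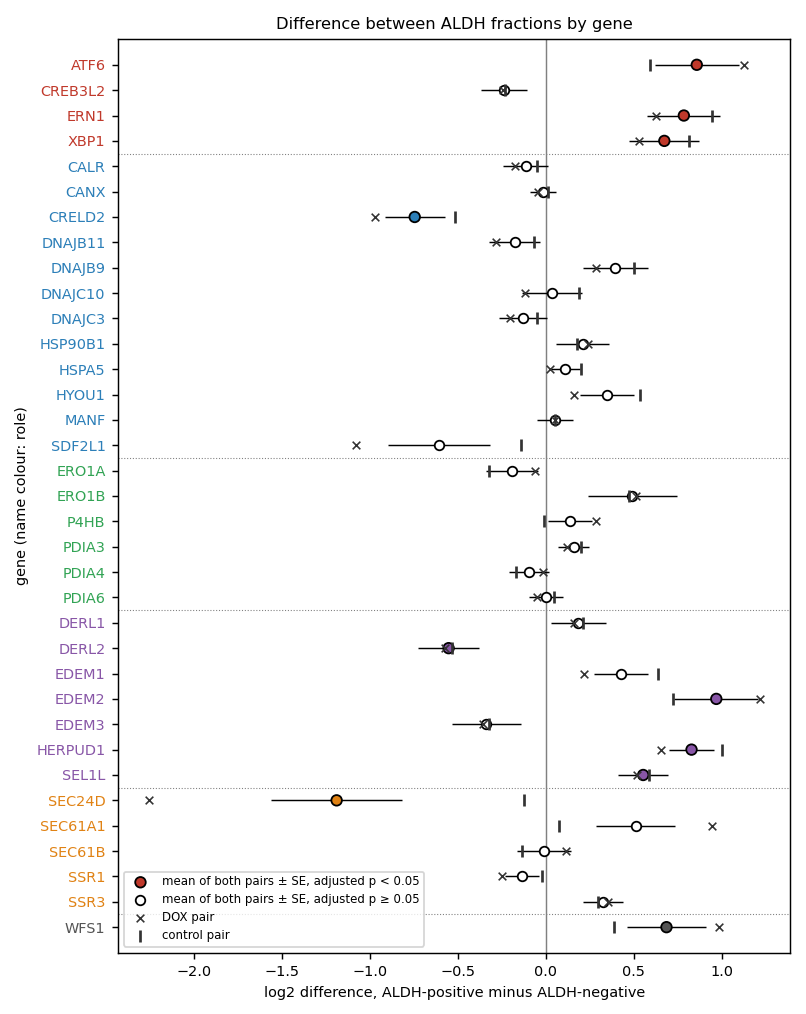
Log2 difference between ALDH-positive and ALDH-negative cells for the 35 measured genes, grouped by role (name colour). Circles are means of both pairs with their SE from the limma model, filled where the adjusted p was under 0.05, crosses are the DOX pair and ticks the control pair (1 array per group). SEC24D lies at -2.26 in the DOX pair and at -0.12 in the control pair, whereas the pairs are -0.06 apart for SEL1L and -0.04 apart for DERL2.

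For this role and those below, the shares to set beside the counts are 13.5% of all genes tested higher and 9.58% lower. The roles were set with earlier results of these data known. Among the 4 sensors and transcription factors, 3 were higher in ALDH-positive cells and none was lower. Their median difference was 0.73, against 0.03 over all genes tested. Without the trend, or without the filter on level, none of the 4 was called. ATF6 was at 10.75 in ALDH-positive DOX and 10.32 in ALDH-positive control cells, against 9.62 in ALDH-negative DOX and 9.73 in ALDH-negative control cells. The mean difference was 0.86 ± 0.24 (SE, limma adjusted p = 0.0219). All 4 probe sets of ATF6 went the same way in both pairs, with differences between 0.43 and 1.52.

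ERN1, the kinase and RNase that splices XBP1, was at 10.91 in ALDH-positive DOX and 11.21 in ALDH-positive control cells, against 10.28 in ALDH-negative DOX and 10.26 in ALDH-negative control cells. The mean difference was 0.79 ± 0.21 (SE, limma adjusted p = 0.0172). The other ERN1 probe set at a level of 6 went apart, at -0.19 in the DOX pair and 0.31 in the control pair, and with the mean of all probe sets the ERN1 difference was 0.33 (limma adjusted p = 0.283).

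XBP1 was at 10.97 in ALDH-positive DOX and 11.34 in ALDH-positive control cells, against 10.44 in ALDH-negative DOX and 10.53 in ALDH-negative control cells. It too was higher in ALDH-positive cells, by 0.67 ± 0.20 (SE, limma adjusted p = 0.0287). With the mean of its probe sets XBP1 differed by 0.50 (limma adjusted p = 0.14). Its second and dimmer probe set differed by 0.76 in the DOX pair and by -0.13 in the control pair. These probe sets do not separate the spliced from the unspliced form. CREB3L2, a related membrane-bound factor of the secretory pathway, did not pass (-0.24 ± 0.13 SE, limma adjusted p = 0.209).

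Of the 12 chaperones and their cofactors, 1 was lower in ALDH-positive cells and none was higher, with a median difference of 0.01. HSPA5 (BiP), the Hsp70 of the ER lumen that holds the sensors inactive, was at 13.07 in ALDH-positive DOX and 13.20 in ALDH-positive control cells, against 13.05 in ALDH-negative DOX and 13.01 in ALDH-negative control cells. The 4 values spanned 0.20 on the log2 scale, and the mean difference of 0.11 ± 0.09 (SE) did not pass (limma adjusted p = 0.378). HSP90B1 (GRP94), the Hsp90 of the ER, differed by 0.21 ± 0.15 (SE). Calreticulin (CALR) and calnexin (CANX), the lectins that hold glycoproteins, differed by -0.11 ± 0.13 and -0.02 ± 0.07 (SE), and MANF, a secreted protein retained by HSPA5, by 0.05 ± 0.10. For CALR the value depends on the probe set: without the probe sets whose names end in _x_at or _s_at, its dimmest one stands for it and the difference is -1.61 (limma adjusted p = 0.0516), with -3.28 in the DOX pair and 0.06 in the control pair.

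CRELD2, an ER-stress-inducible protein with disulfide isomerase activity, was the chaperone-group gene that passed. It was at 10.95 in ALDH-positive DOX and 11.30 in ALDH-positive control cells, against 11.93 in ALDH-negative DOX and 11.82 in ALDH-negative control cells. The mean difference was -0.75 ± 0.17 (SE, limma adjusted p = 0.00832). SDF2L1, a partner of the J-protein DNAJB11, was 2-fold or more lower in the DOX pair only, with 8.25 in ALDH-positive DOX and 8.88 in ALDH-positive control cells, against 9.33 in ALDH-negative DOX and 9.02 in ALDH-negative control cells. Its mean difference of -0.61 ± 0.29 (SE) did not pass (limma adjusted p = 0.156).

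The J-proteins DNAJB9, DNAJB11, DNAJC3 and DNAJC10, which stimulate HSPA5, had mean differences between -0.18 and 0.40, and the nucleotide exchange factor HYOU1 had 0.35 ± 0.15 (SE, limma adjusted p = 0.122). DNAJB9 (ERdj4), a canonical target of spliced XBP1, was the highest of them, at 11.20 in ALDH-positive DOX and 11.32 in ALDH-positive control cells, against 10.91 in ALDH-negative DOX and 10.82 in ALDH-negative control cells. Its difference of 0.40 ± 0.18 (SE) did not pass (limma adjusted p = 0.145).

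None of the 6 genes of disulfide bond formation passed in either direction (limma, 35 ER genes tested within all genes; at an unadjusted p under 0.05, 14 of the 35 passed in all, against 35.7% of all genes). The disulfide isomerases PDIA3, PDIA4, PDIA6 and P4HB had mean differences between -0.09 and 0.16. The oxidases that reoxidise them lay on either side of 0, with ERO1B at 0.49 ± 0.25 and ERO1A at -0.19 ± 0.15 (SE). ERO1B was at 9.59 in ALDH-positive DOX and 9.56 in ALDH-positive control cells, against 9.08 in ALDH-negative DOX and 9.09 in ALDH-negative control cells. Its difference did not pass (limma adjusted p = 0.179).

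ER-associated degradation, which carries misfolded proteins back to the cytosol, went both ways, with 3 genes higher and 1 lower of the 7 measured and a median of 0.43. HERPUD1, a stress-inducible organiser of the degradation complex, was at 12.63 in ALDH-positive DOX and 12.81 in ALDH-positive control cells, against 11.97 in ALDH-negative DOX and 11.81 in ALDH-negative control cells. It had the smallest adjusted p of the 35 genes (0.83 ± 0.13 SE, limma adjusted p = 0.000701), and in the control pair its difference was 1.00. EDEM2, a mannosidase-like factor that marks glycoproteins for removal, was at 10.90 in ALDH-positive DOX and 10.22 in ALDH-positive control cells, against 9.68 in ALDH-negative DOX and 9.50 in ALDH-negative control cells. The EDEM2 mean difference was 0.97 ± 0.24 (SE, limma adjusted p = 0.0122).

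SEL1L, the adaptor of the ligase encoded by SYVN1, was at 12.03 in ALDH-positive DOX and 12.11 in ALDH-positive control cells, against 11.51 in ALDH-negative DOX and 11.52 in ALDH-negative control cells. The fractions differed by 0.55 ± 0.14 (SE, limma adjusted p = 0.0151), whereas with the mean of its probe sets the SEL1L difference was 0.30 (limma adjusted p = 0.311). Derlin-2 (DERL2), a component of the channel, went the other way, with 10.84 in ALDH-positive DOX and 10.998 in ALDH-positive control cells, against 11.41 in ALDH-negative DOX and 11.53 in ALDH-negative control cells. Its mean difference was -0.55 ± 0.18 (SE, limma adjusted p = 0.0389), with the same sign on both of its probe sets, and derlin-1 (DERL1) was at 0.19 ± 0.16. The EDEM2 relatives EDEM1 and EDEM3 did not pass, with 0.43 ± 0.15 (SE, limma adjusted p = 0.0621) and -0.34 ± 0.20 (SE, limma adjusted p = 0.237).

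Of the translocation and export genes, 1 of 5 was lower and none higher. SEC24D, a cargo-binding subunit of the COPII coat that buds from the ER, was at 8.67 in ALDH-positive DOX and 10.69 in ALDH-positive control cells, against 10.93 in ALDH-negative DOX and 10.81 in ALDH-negative control cells. Only the ALDH-positive DOX array was low: the difference was -2.26 in the DOX pair and -0.12 in the control pair, so that the call on its mean (-1.19 ± 0.37 SE, limma adjusted p = 0.037, but -0.40 with adjusted p = 0.253 for the mean of its probe sets) rests on that array. SEC61A1, the pore of the translocon, differed by 0.95 in the DOX pair and 0.07 in the control pair and did not pass. The translocon-associated subunits SSR1 and SSR3 had -0.13 ± 0.10 and 0.33 ± 0.11 (SE, limma adjusted p = 0.0518 for SSR3), and SEC61B had -0.01 ± 0.15. WFS1 (wolframin), an ER membrane protein of calcium and stress control, was at 11.23 in ALDH-positive DOX and 10.66 in ALDH-positive control cells, against 10.24 in ALDH-negative DOX and 10.27 in ALDH-negative control cells. It was higher in ALDH-positive cells by 0.69 ± 0.22 (SE, limma adjusted p = 0.0422), with the same sign on both of its probe sets.

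**Figure D3:**
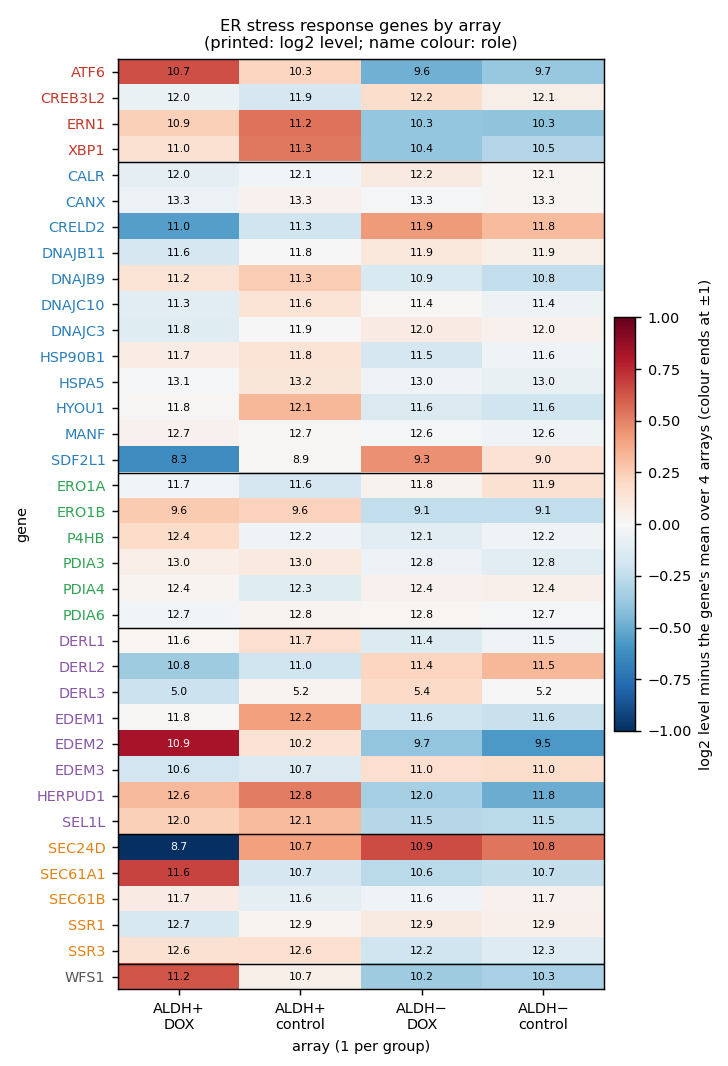
Log2 level of the 36 genes (rows, grouped by role) in the 4 arrays (columns, 1 per group), printed in each cell. Colour gives the level minus the gene's own mean over the arrays and ends at 1 log2 unit either way. Rows of chaperones such as CANX and PDIA6 are nearly colourless. In the ALDH-positive DOX column EDEM2 and SEC61A1 have their highest values and SEC24D its lowest.

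The ER stress elements in the promoters were found in genes that were higher, in a gene that was lower and in genes that did not pass. EDEM2 (0.97) and ATF6 (0.86), the furthest upward, held neither element, and SEC24D, the furthest downward, had no matched window. Of 11 measured genes with an ERSE or ERSE-II, 2 were higher in ALDH-positive cells (XBP1 and HERPUD1), 1 was lower (CRELD2), and 8 did not pass, with a median of 0.11. Of the 21 measured genes whose windows held neither, 5 were higher and 1 was lower, with a median of 0.05. The complete windows of HSPA5, XBP1, HERPUD1 and CRELD2 are given because they hold the element beside a flat gene, a pair of higher ones and a lower one. They run 5′ to 3′ on the strand of the gene, with the fixed letters of ERSE or ERSE-II in capitals. They lie at chr9:125241294-125241593 (minus strand), chr22:28800520-28800819 (minus strand), chr16:56931892-56932191 (plus strand) and chr22:49918384-49918683 (plus strand).
HSPA5: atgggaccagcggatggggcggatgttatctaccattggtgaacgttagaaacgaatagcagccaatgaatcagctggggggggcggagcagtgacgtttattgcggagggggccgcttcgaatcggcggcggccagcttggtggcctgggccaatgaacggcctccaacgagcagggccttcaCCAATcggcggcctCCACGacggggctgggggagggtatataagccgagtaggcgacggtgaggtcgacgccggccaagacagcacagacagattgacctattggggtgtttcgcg
XBP1: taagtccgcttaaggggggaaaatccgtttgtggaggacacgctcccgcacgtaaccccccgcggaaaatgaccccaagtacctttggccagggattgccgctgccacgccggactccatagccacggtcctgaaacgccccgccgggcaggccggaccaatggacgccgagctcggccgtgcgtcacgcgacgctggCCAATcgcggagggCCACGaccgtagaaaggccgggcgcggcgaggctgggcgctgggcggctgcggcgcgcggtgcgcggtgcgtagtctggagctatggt
HERPUD1: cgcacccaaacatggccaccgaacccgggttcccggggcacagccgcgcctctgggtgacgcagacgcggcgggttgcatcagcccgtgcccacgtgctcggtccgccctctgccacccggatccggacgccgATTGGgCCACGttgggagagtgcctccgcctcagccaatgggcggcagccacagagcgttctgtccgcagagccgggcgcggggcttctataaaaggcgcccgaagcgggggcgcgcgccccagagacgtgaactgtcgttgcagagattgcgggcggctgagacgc
CRELD2: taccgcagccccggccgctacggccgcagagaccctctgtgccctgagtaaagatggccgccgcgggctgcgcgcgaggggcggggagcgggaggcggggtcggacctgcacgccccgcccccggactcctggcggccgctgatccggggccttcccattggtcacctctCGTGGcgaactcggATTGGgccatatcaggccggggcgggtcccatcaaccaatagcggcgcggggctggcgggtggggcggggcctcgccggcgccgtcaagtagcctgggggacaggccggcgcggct

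In CRELD2 the element reads on the opposite strand to the gene, and in the other 3 on the same strand. A match is a description of the letters, and whether a factor bound there was not measured.

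**Figure D4:**
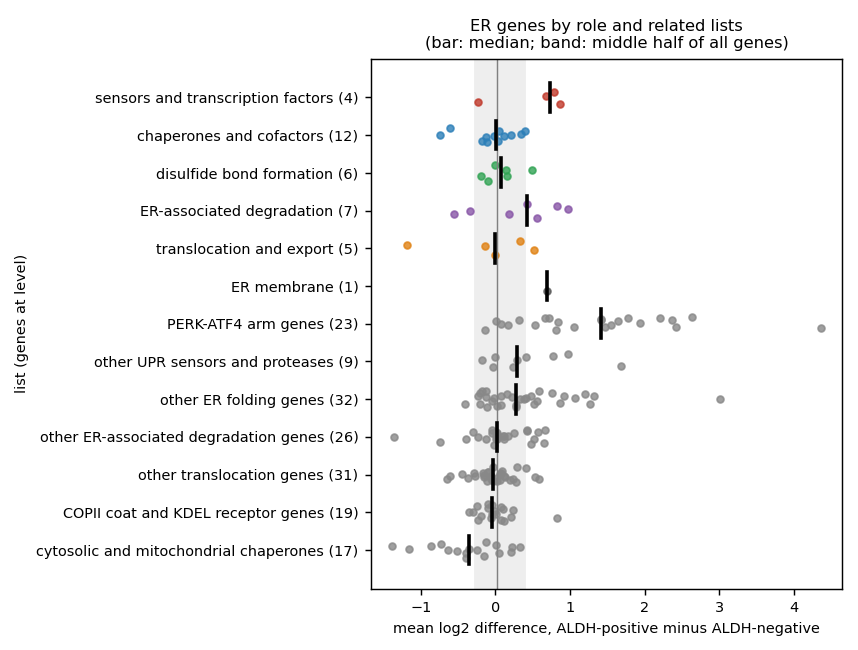
Mean log2 difference between ALDH-positive and ALDH-negative cells for each gene (points) of the ER roles (coloured) and of related lists (grey), with the number of measured genes in brackets. The black bar is the median of the list and the grey band the middle of all 12365 genes between their quartiles. The PERK-ATF4 list has its median at 1.41, the ER chaperones at 0.01 and the cytosolic and mitochondrial chaperones at -0.35.

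Other genes of the ER and of related responses were grouped in lists that do not overlap the 37 and were chosen with earlier results of these data known. For every list below, the shares to set beside its counts are 13.5% of all genes tested higher and 9.58% lower. Without the trend, 998 of the 12365 genes were higher and 529 lower. One list was named for the PERK-ATF4 arm, which reduces translation and raises amino acid and redox genes. In it 18 of 23 measured genes were higher in ALDH-positive cells and none was lower, with a median of 1.41. Whether PERK lay behind these differences was not tested. Without the trend 14 were still called. CHAC1, a glutathione-degrading enzyme, differed by 4.36 ± 0.28 (SE), the transcription coregulator NUPR1 by 2.63 ± 0.19, the transcription factor DDIT3 (CHOP) by 2.42 ± 0.25 and the pseudokinase TRIB3 by 2.36 ± 0.24, with limma adjusted p-values between 3.97e-06 and 4.19e-05. The sensor gene of this arm, EIF2AK3, was at 9.40 in ALDH-positive DOX and 9.68 in ALDH-positive control cells, against 9.79 in ALDH-negative DOX and 9.66 in ALDH-negative control cells, and it differed by -0.18 ± 0.25 (SE, limma adjusted p = 0.648).

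Among 9 other sensor and protease genes, 3 were higher and none lower, with a median of 0.29, and without the trend 1 was called. They were the membrane-bound transcription factors CREB3L4 (1.68 ± 0.28 SE, limma adjusted p = 0.00127), CREB3L1 (0.98 ± 0.25) and NFE2L1 (0.77 ± 0.09). Of 32 other ER folding genes 9 were higher and none lower, against 13.5% and 9.58% of all genes, with a median of 0.28. Calmegin (CLGN), a calnexin-like chaperone best known from the testis, was highest at 3.01 ± 0.26 (SE, limma adjusted p = 1.52e-05). The paralogue of CRELD2, CRELD1, was at 1.26 ± 0.28, and the collagen-folding prolyl isomerase FKBP10 at 1.20 ± 0.25. The 9 include CDNF, the paralogue of MANF (1.31 ± 0.29), which reached a level of 6 in the ALDH-positive DOX array alone and so had to differ to be tested. Without the trend, 4 of these folding genes were called.

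CRELD2 and CRELD1 went in opposite directions: CRELD1 was at 9.04 in ALDH-positive DOX and 8.40 in ALDH-positive control cells, against 7.59 in ALDH-negative DOX and 7.32 in ALDH-negative control cells. Of 26 other degradation genes, 1 was higher (OS9, a lectin of the SEL1L complex, 0.65 ± 0.18 SE) and 2 were lower (the mannosidase MAN1A1, -1.36 ± 0.26, and VCP, the ATPase that pulls proteins from the membrane, -0.74 ± 0.22), with a median of 0.02, and without the trend 1 was called, lower. Of 31 other translocation, signal peptidase and glycosylation genes, 2 were higher (SSR2 and SEC63) and 2 were lower (SRPRB and TUSC3), with a median of -0.03, and without the trend none was called. Of 19 COPII coat and cargo receptor genes none was called, with a median of -0.04. The largest difference there was that of SEC31B (0.82 ± 0.34 SE, limma adjusted p = 0.0983), and the SEC24D relatives SEC24A, SEC24B and SEC24C had values between -0.36 and 0.07.

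Of 17 measured cytosolic and mitochondrial chaperones, 6 were lower in ALDH-positive cells and none was higher, with a median of -0.35. Among all genes 9.58% were lower and 13.5% higher. HSPH1, an exchange factor of cytosolic Hsp70, differed by -1.38 ± 0.15 (SE, limma adjusted p = 7.56e-05), the small heat shock protein CRYAB by -1.16 ± 0.30, the Hsp90 cochaperone STIP1 by -0.86 ± 0.20 and the J-protein DNAJA1 by -0.73 ± 0.12. Without the trend 2 of them were called. Whether this list differs from the ER chaperones was not tested.

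DOX changed no ER gene past the threshold in the limma model over both fractions. None of the 35 genes passed after adjustment in either direction, against 0.00809% of the 12365 genes tested. Before adjustment SEC24D alone passed a limma p of 0.05 (-0.95 ± 0.37 SE, unadjusted p = 0.025, adjusted p = 0.858), against 652 of the 12365 genes. That model counts a response that differs between the fractions as error. The median DOX difference of the 35 genes was -0.075 within the ALDH-positive fraction and 0.03 within the ALDH-negative one, beside 0.114 and -0.0028 over all genes measured.

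In ALDH-positive cells 11 of the 35 genes lay above and 24 below 0, beside 7501 above and 4863 below 0 among all measured genes. Of the 12 chaperones 11 lay below 0 there, with a median of -0.12. In ALDH-negative cells 10 lay above 0, with a median of 0.05, beside 6056 of all measured genes above and 6294 below 0. Both medians were smaller than the median absolute difference of all genes, 0.30 in the ALDH-positive and 0.09 in the ALDH-negative pair. Whether the chaperones differ from other genes was not tested. Among them the fractions were furthest apart for SDF2L1, with -0.63 within the ALDH-positive fraction and 0.31 within the ALDH-negative one. CRELD2 differed by -0.35 among ALDH-positive and by 0.11 among ALDH-negative cells. HYOU1 differed by -0.32 within the ALDH-positive fraction and by 0.05 within the ALDH-negative one, DNAJC10 at -0.24 and 0.06, and HSPA5 at -0.13 and 0.04. The control of each fraction is 1 array, so that all members of a pair share it and cannot be counted as repeats.

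By size, SEC24D alone reached 2-fold in ALDH-positive cells, lower with DOX, against 2.3% of all genes lower and 3.47% higher. That balance depends on scaling: with each array centred on its median over measured genes, 387 genes were lower and 264 higher, against 280 and 422 as deposited. In ALDH-negative cells none of the 35 did, against 0.322% of all genes (0.271% higher and 0.0508% lower), and the ER genes there lay between -0.12 and 0.31. The ALDH-positive differences next in size were SEC61A1 at 0.85, EDEM2 at 0.68, SDF2L1 at -0.63 and WFS1 at 0.57. In ALDH-negative cells these 4 were at -0.03, 0.18, 0.31 and -0.03. Between the fractions, the DOX difference was 2-fold or more apart for SEC24D alone (-2.14), against 6.19% of all genes (3.78% higher and 2.4% lower in the ALDH-positive fraction). The dimmer SEC61A1 probe set did not show the difference (-0.01), and both probe sets of WFS1 did (0.57 and 0.78).

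SEC24D was the furthest ER gene, but its probe sets disagreed. The brighter probe set was at 8.67 in ALDH-positive DOX and 10.69 in ALDH-positive control cells. The other one that reached a level of 6 was at 7.39 in ALDH-positive DOX and 7.12 in ALDH-positive control cells, so that they differed by -2.02 and by 0.27. With the mean of its probe sets SEC24D differed by -0.47 in this pair.

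The same kind of disagreement was found for 10 of the 28 ER genes with at least 2 probe sets at a level of 6 in the ALDH-positive DOX pair, that is, their probe sets were 2-fold or more apart. Among all genes this was so for 1556 of 6455 (24.1%). In the ALDH-negative DOX pair it was so for none of the 28, against 23 of 6298 genes (0.365%), and between the fractions of control cells for SSR3 only, against 11.9% of genes. It was thus seen where the ALDH-positive DOX array was one of the pair, as it was between the fractions of DOX cells, with 12 of 28 ER genes, against 28.4% of genes.

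CALR showed it most. Its dimmest probe set was at 7.06 in ALDH-positive DOX and 10.20 in ALDH-positive control cells, against 10.34 in ALDH-negative DOX and 10.14 in ALDH-negative control cells, a DOX difference of -3.13 in ALDH-positive cells. The brightest was at 12.02 in ALDH-positive DOX and 12.08 in ALDH-positive control cells, and the remaining one at 11.64 in ALDH-positive DOX and 11.49 in ALDH-positive control cells. One CALR probe set was thus low in a single array, and the other two were level over all 4.

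The disulfide isomerase PDIA4 repeated this, with the dimmer of its probe sets at 9.38 in ALDH-positive DOX and 11.84 in ALDH-positive control cells, against 11.45 in ALDH-negative DOX and 11.35 in ALDH-negative control cells. Its brighter probe set was at 12.39 in ALDH-positive DOX and 12.25 in ALDH-positive control cells. CANX had one at 10.97 in ALDH-positive DOX and 12.63 in ALDH-positive control cells, while its brightest was at 13.25 in ALDH-positive DOX and 13.35 in ALDH-positive control cells. DNAJC3 (p58IPK), an inhibitor of EIF2AK3, had 2 low probe sets, at -1.90 and -1.31, and 2 level ones, at -0.13 and -0.12. In each of these genes the brightest probe set, which stands for the gene in the values above, was level.

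In all, 9 of the 89 ER probe sets at a level of 6, in 8 genes, were 2-fold or more lower in ALDH-positive DOX than in ALDH-positive control cells, against 5.69% of all probe sets, and none was 2-fold higher, against 3.24%. Besides SEC24D, CALR, PDIA4, CANX and DNAJC3 these genes were ERO1B (-1.56), EDEM3 (-1.31) and DNAJB9 (-1.26), each by 1 probe set. In the ALDH-negative DOX pair none of the 89 was 2-fold different, against 0.0724% of all probe sets lower and 0.221% higher. Where along its transcript each probe set lies was not used here, so that a change of transcript form and a change of the array's signal cannot be told apart.

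**Figure D5:**
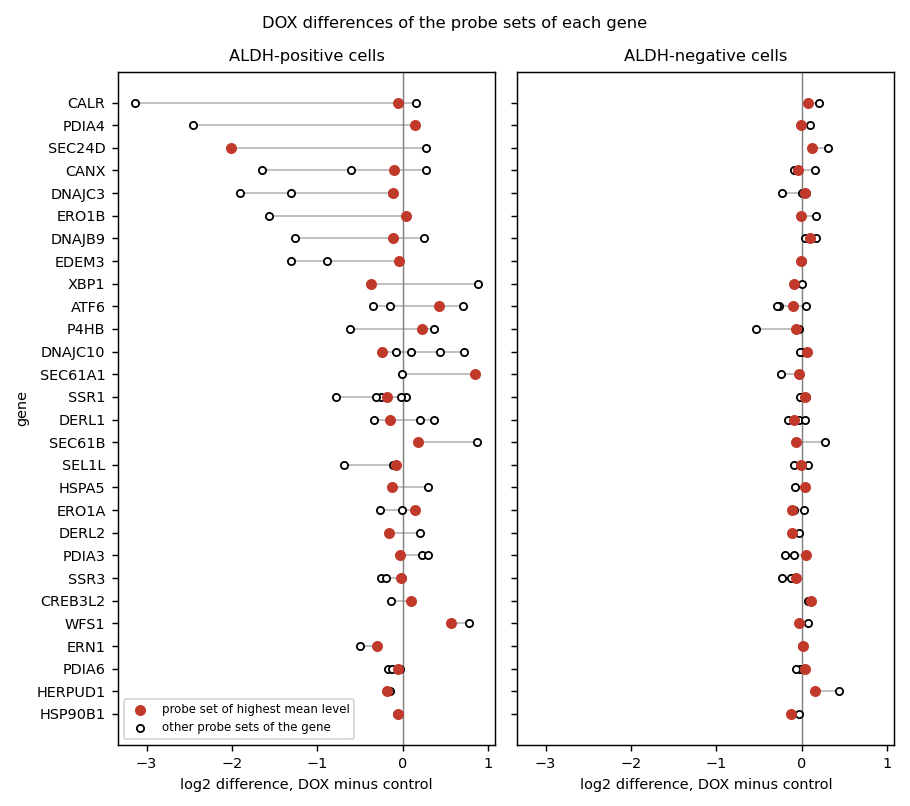
Log2 difference between DOX and control cells for each probe set of the 28 genes with at least 2 at a level of 6, in ALDH-positive cells (left) and ALDH-negative cells (right). Red points are the probe set of highest mean level, open points the others, and the grey line joins those of a gene. CALR spans -3.13 to 0.15 in ALDH-positive cells and 0.07 to 0.20 in ALDH-negative cells.

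The fraction calls that bear on more than 1 probe set were read in the control pair, which does not hold the ALDH-positive DOX array. That pair is part of the mean on which these genes were called, so the reading is no separate check. ATF6 had differences between 0.55 and 0.63 on 4 probe sets there, WFS1 0.39 and 0.66, HERPUD1 1.00 and 1.17, and DERL2 -0.53 and -0.68. Other called genes were less alike there, with XBP1 at 0.82 and -0.13, ERN1 at 0.95 and 0.31, and SEC24D at -0.12 and 0.0013. SEL1L had 0.59, 0.93 and 0.25 on the 3 at a level of 6, though in the DOX pair the last of these was at -0.51. SSR3 was the exception among genes that did not pass, with 0.30, 0.18 and 0.18 on 3 probe sets and -1.46 on the dimmest, which was low in both ALDH-positive arrays (7.40 in DOX and 7.41 in control cells, against 8.74 in ALDH-negative DOX and 8.87 in ALDH-negative control cells).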

How the data were processed

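Per the labels, biotin-labelled RNA was hybridised to 4 Affymetrix arrays, and per the submitters' processing notes the deposited log2 levels were made with RMA, a method that removes background, equalises the distributions of the arrays by quantiles and joins the probes of a probe set. The deposited log2 values were used without further scaling. Probe sets were named from an array annotation of 2016, with symbols updated by gene identifier: 41097 of 54675 had 1 gene, 1801 several and 11777 none. The probe set of highest mean stood for a gene, and every probe set of the ER genes was also read. Genes with a log2 level of 6 or more on any array were fitted with limma 3.58.1 (additive terms for ALDH fraction and DOX, eBayes with trend, two-sided) in R 4.3.3, with 1 residual and 11.6 prior degrees of freedom. Pair differences were called at 2-fold, with no p-value, given a level of 6 in 1 of the 2 arrays. Precision is limited by having 4 arrays. Nothing says that they came from separate cultures, so the p-values cover only how these arrays vary, possibly for technical reasons.

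The members, roles and lists were chosen with earlier results of these data known. Gene values are printed in full for ER genes that passed limma or the size rule and for HSPA5, XBP1, ATF6 and ERN1. Others written out (DNAJB9, ERO1B, EIF2AK3 and CRELD1), and the single probe sets named, were chosen after their values were seen. From each other list up to 4 genes that passed are named, those of largest difference, or by size where none passed. Alternatives were centring on array medians, cyclic loess, other level filters, a floor at 6, the mean of probe sets, leaving out probe sets whose names end in _x_at or _s_at (which can bind several transcripts), 1.5-fold, and eBayes without trend or robust. Promoters were searched in Python 3.11.15 with pandas 2.3.3. The model was also run on simulated arrays with independent noise, a known fraction difference in some genes, no DOX difference and no array set apart. That run cannot show how the model handles the ALDH-positive DOX array.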

Additional observations from a re-analysis of the deposited data

Results flagged for a closer look

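One gene and 5 further probe sets were singled out because their DOX differences had opposite signs in the fractions and lay 2-fold or more apart, a difference that was not tested since each group held 1 array. SEC24D differed by -2.02 within the ALDH-positive fraction and by 0.12 within the ALDH-negative one, which are -2.14 apart. The dimmest CALR probe set was -3.33 apart, the dimmer PDIA4 probe set -2.55, the dimmer ERO1B probe set -1.72, the dimmest DNAJC3 probe set -1.36 and a DNAJB9 probe set -1.30. In all 6 the ALDH-positive DOX array had the lowest value. For ERO1B, however, it was at 5.64, near ALDH-negative DOX (6.15) and control cells (5.99), and the ALDH-positive control array was high (7.21). The DNAJB9 probe set was at 9.11 in ALDH-positive DOX and 10.37 in ALDH-positive control cells, against 9.81 and 9.78 in ALDH-negative DOX and control cells. The brightest probe sets of CALR, PDIA4, ERO1B, DNAJC3 and DNAJB9 were -0.13, 0.16, 0.04, -0.15 and -0.21 apart.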

How the results depend on the processing

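No analysis paired by replicate number was possible, because each group held 1 array. The additive model over both pairs compares the fractions within each treatment, and it is the one fit of its kind. No value of an ER gene called in the text changed sign under any alternative run. The number of ER genes called between the fractions was 10 (7 higher, 3 lower), and it was 1 without a filter on level, 1 with eBayes without trend, 4 with the mean of probe sets and 6 after centring on the median over measured genes, an alternative added after seeing the data. All genes called were 2856, against 1177 without a filter and 1527 without trend. CRELD2 passed in 8 of 10 alternatives, EDEM2 in 9, HERPUD1 in 8, ATF6 and ERN1 in 7, XBP1, DERL2 and WFS1 in 6, SEL1L in 5 of 9 and SEC24D in 3 of 10. For DOX, the 1 gene called of all genes was 0 with cyclic loess, no filter, a floor at 6, no trend or centring on measured genes, and 4 at a level of 7; no ER gene was called in any. By size at 1.5-fold, all genes called were 4347 between the fractions with DOX, 3142 between the control fractions, 2609 for DOX in ALDH-positive cells, 209 in ALDH-negative cells and 2754 for the difference of the DOX differences, and ER genes 9, 7, 4, 0 and 4. For ALDH-negative DOX, where 38 genes were called, there were 24 at a level of 7, 24 with a floor at 6 and 21 with the mean of probe sets. Between the control fractions the 1 ER gene called became 0 after centring and 2 without the _x_at and _s_at probe sets. For DOX in ALDH-positive cells it became 2 with the mean of probe sets and 3 without the _x_at and _s_at ones, and for the difference of DOX differences 2 with cyclic loess, the mean of probe sets or centring on measured genes and 3 without the _x_at and _s_at ones. Centring on measured genes turned the DOX calls in ALDH-positive cells to 264 higher and 387 lower, from 422 and 280, the difference of DOX differences to 295 and 440, from 468 and 297, and the fractions with DOX to 1124 and 843, from 1396 and 650. The causes of these shifts were not tested. With 1 array a group, the spread within a group is unknown.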

Other observations

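Probe sets annotated to an ER gene together with a microRNA gene were left out above. The one shared by SYVN1, the ubiquitin ligase of ER-associated degradation, and MIR6751 was at 9.34 in ALDH-positive DOX and 9.14 in ALDH-positive control cells, against 9.29 in ALDH-negative DOX and 9.20 in ALDH-negative control cells. Both probe sets shared by HSP90B1 and MIR3652 were higher in the ALDH-positive control than in the ALDH-negative control array, by 0.24 and 0.19, and with DOX they differed by -0.14 and 0.16.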
